A study of Mus musculus with 8 samples.

Results

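Accessible chromatin at the potassium channel genes was compared in mouse embryonic stem cell-derived cardiac progenitors that did or did not overexpress GLI1. A gene was counted when its symbol begins with Kcn and it lies on an autosome, which gave 92 of 21900 annotated protein-coding genes. A peak belonged to such a gene when that gene was the protein-coding gene nearest to the peak's summit, within 100 kb, in the RefSeq annotation of mm10. By this rule, potassium channel peaks made up 421 of 65318 peaks with GLI1 at day 7 (D7), 360 of 59488 in D7 control cells and 283 of 48177 in day 5 (D5) control cells, or 1064 of 172983 in all. Overlapping peaks of a list were joined, which left 301 potassium channel regions with GLI1, 249 in D7 control and 255 in D5 control. These lay at 80, 78 and 76 of the 92 genes, and 84 genes had a region in at least 1 list. Kcna7, Kcne4, Kcnj13, Kcnk4, Kcnk6, Kcnk7, Kcnk15 and Kcnk16 had no region in any list, and the X-linked Kcnd1 and Kcne1l fell outside the rule.

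All cells were of the line GLI1-FTA, with the strain given as A2Lox.cre, and were taken along a differentiation towards cardiomyocytes. The D7 GLI1 group held 3 libraries from cells given 500 ng/ml doxycycline for 48 hours, and the untreated controls held 3 libraries at D7 and 2 at D5. Because only the GLI1 cells received doxycycline, effects of the agent itself and of GLI1 cannot be told apart. ATAC-seq, in which the Tn5 transposase cuts and tags open DNA, was deposited as 1 pooled peak list a group, so no replicate spread and no p-value can be given. That the list named only as control holds the D7 controls is an inference from its name.

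Potassium channels let potassium ions leave or enter the cell and so set the resting potential and end the action potential. Voltage-gated channels are tetramers of pore-forming subunits, and some subunits are silent alone and modify others. Inward rectifiers hold the resting potential and include the channels gated by G proteins and by ATP. Tandem-pore channels carry leak currents, and calcium- or sodium-activated channels open when those ions rise inside the cell. Auxiliary subunits, such as the KChIP proteins encoded by the Kcnip genes, bind the pore subunits and change their gating or traffic. In cardiomyocytes Kcnj2 serves the inward rectifier current, Kcnh2 and Kcnq1 the delayed rectifier currents, and Kcnd2 and Kcnd3 the transient outward current.

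The promoters below are those of genes named in the comparisons, each 300 bases long, from 250 bases before to 50 after an annotated transcription start. They are RefSeq sequences of GRCm38.p6 (mm10), written 5′ to 3′ on the strand of the gene, with CpG dinucleotides in capitals. Kcnh1 (chr1:192190527-192190826, plus strand) is the gene with the strongest region found with GLI1 and not in D7 control. Kcnn3 (chr3:89519914-89520213, plus) is the gene with the strongest region found in D7 control and not with GLI1. Those regions of Kcnh1 and Kcnn3 lie 171 and 64.1 kb from the start of the gene. The printed windows of both genes were open in all 3 lists. Kcnt2 (chr1:140245468-140245767, plus) has one of the strongest regions present in all 3 lists. The other 5 were chosen after their values were seen. Kcnj2 (chr11:111065914-111066213, plus) is a cardiac gene open in all 3 lists, and Kcnq1ot1 (chr7:143296498-143296797, minus) is the antisense RNA that starts inside Kcnq1. Kcnh8 (chr17:52602459-52602758, plus) and Kcnj15 (chr16:95257308-95257607, plus) were open with GLI1 and in neither control list. Kcnj6 (chr16:94997647-94997946, minus) was rich in CpG and open in no list.
Kcnh1: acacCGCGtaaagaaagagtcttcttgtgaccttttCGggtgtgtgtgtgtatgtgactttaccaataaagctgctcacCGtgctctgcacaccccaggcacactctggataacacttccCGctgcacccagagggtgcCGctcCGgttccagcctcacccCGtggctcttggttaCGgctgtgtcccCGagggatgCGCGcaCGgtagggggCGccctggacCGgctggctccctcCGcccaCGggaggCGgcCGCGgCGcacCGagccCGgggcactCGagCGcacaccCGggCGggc
Kcnn3: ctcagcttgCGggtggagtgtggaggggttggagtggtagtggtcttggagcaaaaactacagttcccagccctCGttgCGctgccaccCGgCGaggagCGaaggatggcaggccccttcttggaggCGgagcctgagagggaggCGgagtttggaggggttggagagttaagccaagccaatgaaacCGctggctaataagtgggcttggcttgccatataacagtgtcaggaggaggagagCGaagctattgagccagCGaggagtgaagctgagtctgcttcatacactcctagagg
Kcnt2: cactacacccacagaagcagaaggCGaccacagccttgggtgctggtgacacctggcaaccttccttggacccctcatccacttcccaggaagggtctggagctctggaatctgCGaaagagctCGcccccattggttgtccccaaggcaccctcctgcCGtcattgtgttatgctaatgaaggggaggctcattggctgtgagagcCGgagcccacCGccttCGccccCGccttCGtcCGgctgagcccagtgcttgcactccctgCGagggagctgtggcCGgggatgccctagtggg
Kcnj2: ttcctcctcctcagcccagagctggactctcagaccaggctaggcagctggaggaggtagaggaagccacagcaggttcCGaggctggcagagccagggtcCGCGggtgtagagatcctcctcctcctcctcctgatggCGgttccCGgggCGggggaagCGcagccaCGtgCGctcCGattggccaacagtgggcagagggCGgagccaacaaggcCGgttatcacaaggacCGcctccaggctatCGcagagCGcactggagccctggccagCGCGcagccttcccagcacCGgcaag
Kcnh8: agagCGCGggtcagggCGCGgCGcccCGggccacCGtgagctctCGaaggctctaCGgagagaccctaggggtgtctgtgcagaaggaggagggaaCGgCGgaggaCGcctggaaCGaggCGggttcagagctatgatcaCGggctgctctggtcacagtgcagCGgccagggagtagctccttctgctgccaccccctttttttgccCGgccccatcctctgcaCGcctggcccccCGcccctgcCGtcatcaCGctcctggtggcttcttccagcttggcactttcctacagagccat
Kcnj15: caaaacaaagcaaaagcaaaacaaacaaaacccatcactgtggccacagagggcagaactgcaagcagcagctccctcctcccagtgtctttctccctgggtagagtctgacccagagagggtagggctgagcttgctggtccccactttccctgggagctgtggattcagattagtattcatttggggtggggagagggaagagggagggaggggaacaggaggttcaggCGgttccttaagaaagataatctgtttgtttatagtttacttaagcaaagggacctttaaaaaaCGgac
Kcnj6: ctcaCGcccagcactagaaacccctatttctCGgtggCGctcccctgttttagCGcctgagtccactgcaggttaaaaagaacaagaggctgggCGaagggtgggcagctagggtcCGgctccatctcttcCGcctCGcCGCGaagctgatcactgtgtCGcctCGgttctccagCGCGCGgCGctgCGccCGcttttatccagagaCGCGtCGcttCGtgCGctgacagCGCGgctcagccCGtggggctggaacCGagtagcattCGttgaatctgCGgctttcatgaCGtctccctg
Kcnq1ot1: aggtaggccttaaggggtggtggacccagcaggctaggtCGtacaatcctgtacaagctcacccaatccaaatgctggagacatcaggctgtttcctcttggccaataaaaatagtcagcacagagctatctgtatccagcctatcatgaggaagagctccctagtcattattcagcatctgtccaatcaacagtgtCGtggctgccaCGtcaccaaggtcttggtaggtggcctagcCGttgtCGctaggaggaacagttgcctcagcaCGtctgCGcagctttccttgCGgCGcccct
The sequences differ in CpG content, from 2 CpG in Kcnj15 to 30 in Kcnj6.

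The GLI1 list began at a fold of 2.46 over background and the D7 control list at 2.52, against 1.42 at D5. Every fold quoted is the authors' own value for a peak, and that of a region is its highest peak. Folds rose in whole steps of 0.176 with GLI1 and 0.180 in D7 control, as for a constant background of 4.70 and 4.56 reads per base, if the peak caller adds 1 read to both sides of its ratio. For the D5 list no such step was worked out, and its shortest peak had 124 bases, against 200 in the D7 lists. Its folds are taken to be on another scale, and a region missing at D5 may have been below its depth, which is not given. Gli1 itself had 8 regions with GLI1, 4 in D7 control and 3 at D5, with 6 gained and 0 lost. Of 10 cardiac progenitor genes, 8 had a region with GLI1, 10 in D7 control and 9 at D5. Tnnt2 and Myl7, which encode cardiac contractile proteins, had none with GLI1, against 1 and 3 in D7 control. The Tnnt2 region had 2.52, the fold at which that list begins, and Tnnt2 had no region at D5. The highest fold was higher with GLI1 than in D7 control at Nkx2-5, Isl1, Gata4, Gata6, Tbx20, Mef2c and Hand2. At Tbx5 it was lower, with 4.74 against 5.22. The 8 neural progenitor genes each had a region in every list. Cardiac progenitor genes had 31 regions with GLI1, 34 in D7 control and 51 at D5, and neural progenitor genes 37, 31 and 25. The 5 endoderm genes had 20, 6 and 17 regions and the 6 endothelial genes 32, 23 and 23, in the same order. Most endoderm regions were at Foxa2, with 13, 2 and 9, and Sox17, with 6, 2 and 3. Cer1 and Afp had none at D7, and Ttr had 1 with GLI1 against 2 in D7 control. Of the endothelial genes, Erg had 14 with GLI1 against 6 in D7 control, Cdh5 8 against 4 and Pecam1 3 against 2. Tek had 2 in each, while Kdr had 4 against 7 and Emcn 1 against 2. Neuron genes had 31 regions with GLI1, 26 in D7 control and 37 at D5. Pluripotency genes, among which Pou5f1 had no region in any list, had 22, 22 and 17. Sox2, with 11, 9 and 4 regions, was counted among both the neural progenitor and the pluripotency genes. In pooled cells a change in the share of a cell type and a change within each cell cannot be told apart, and the part of these markers in the results below was not tested.

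A region of the GLI1 list with no overlapping D7 control region is called gained, and a D7 control region with no overlapping GLI1 region is called lost. Of the 301 potassium channel regions with GLI1, 133 were gained, or 44.2% (Wilson 95% interval 38.7 to 49.8), where 37.0% of all 38488 autosomal regions with a gene within 100 kb were gained. Of the 249 regions in D7 control, 75 were lost, or 30.1% (24.8 to 36.1), where 29.4% of all 34676 were lost. The intervals cover counting error only. Thus the share of gained regions was 7.15 percentage points above that of all regions, and the share of lost regions 0.69 points above. Regions of 1 gene are not independent of each other, so these intervals are too narrow as a measure of the genes. Counted by gene, 40 of the 81 potassium channel genes with a D7 region had more gained than lost regions, or 49.4%, and 20 had more lost, or 24.7%. The same shares over 14869 genes were 34.6% and 20.6%. Gained and lost counts were equal at 21 of the 81 genes and at 6659 of the 14869. Ties were thus rarer at potassium channel genes, which leaves more genes for both shares.

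**Figure D1:**
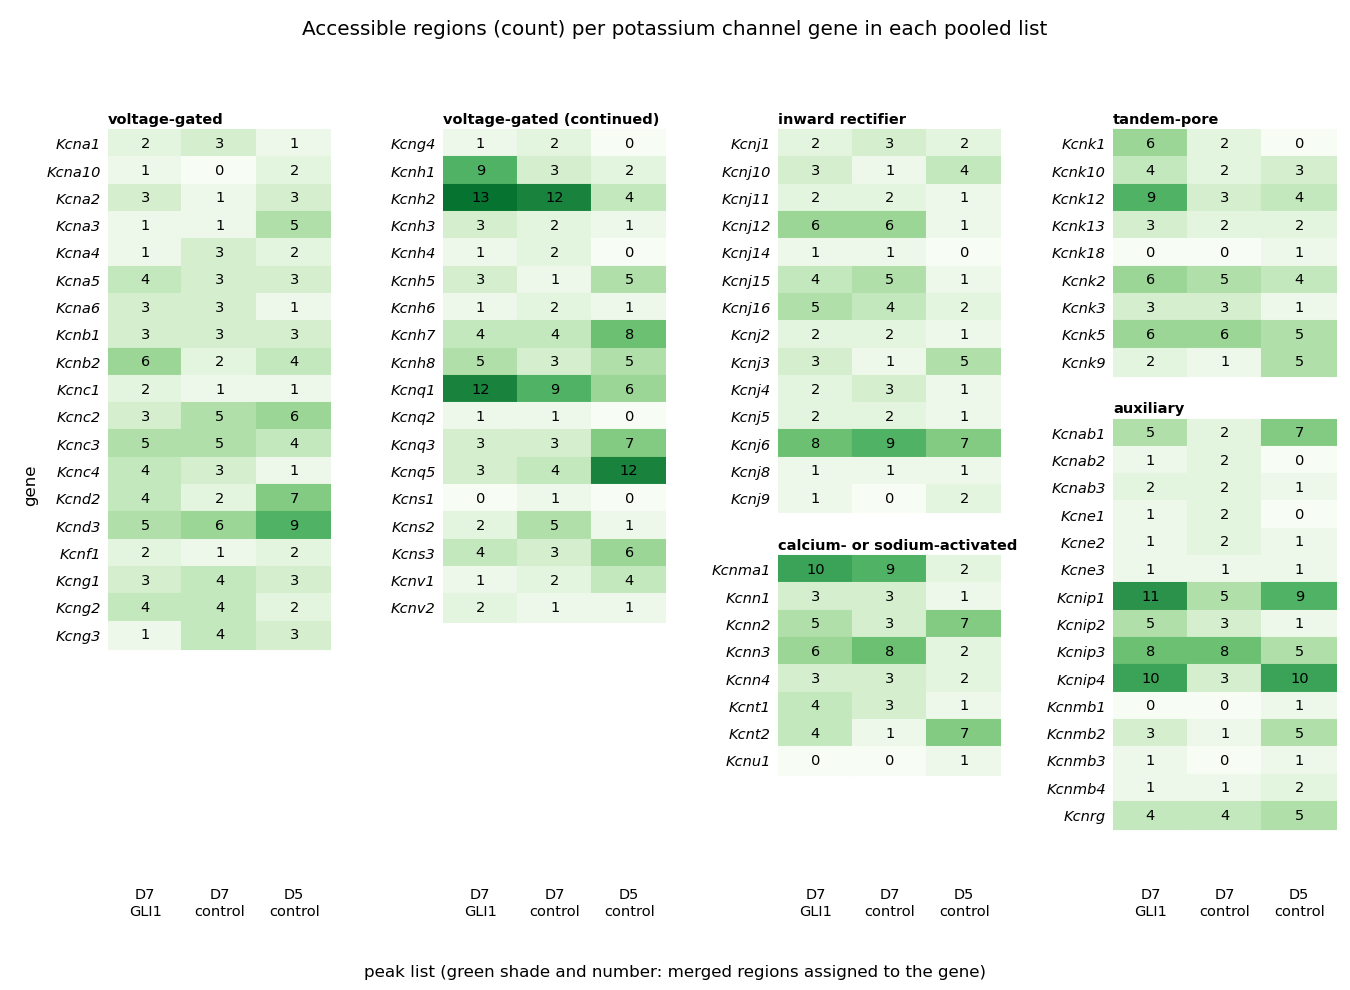
Number of accessible regions assigned to each of 83 of the 84 potassium channel genes with a region, in the D7 GLI1, D7 control and D5 control lists, with darker green for more regions. Kcnh1 had 9 regions with GLI1, 3 in D7 control and 2 at D5, while Kcnq5 had 3, 4 and 12.

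By fold, the excess of gained regions was in weak ones. When only peaks with a −log10 q of at least 5 were kept, however, the gained share was 41.3%, against 32.1% of all regions. Strong regions were those gained or lost with a fold 2 or more times the value at which the opposite D7 list starts, which is 5.04 for gained and 4.91 for lost regions. Among potassium channel regions 25 were gained and strong, 8.31% of the GLI1 regions (5.69 to 12.0), close to the 8.45% of all regions. Another 20 were lost and strong, 8.03% of the D7 control regions (5.26 to 12.1), beside 7.07% of all. The median fold was 3.86 in gained and 3.60 in lost potassium channel regions, and 6.49 in the GLI1 regions that were shared. Over all genes these medians were 3.86, 3.96 and 10.4, so the shared regions of potassium channel genes were lower than those of all genes. Gained regions lay inside the gene in 66.9% of cases and within 1 kb of a gene end in 12.8%. Lost regions lay near a gene end in 2.67% and shared regions in 35.7%. The same order held over all genes, where 60.6% of gained regions lay inside the gene, and 10.6% of gained, 8.11% of lost and 45.4% of shared regions lay near an end.

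**Figure D2:**
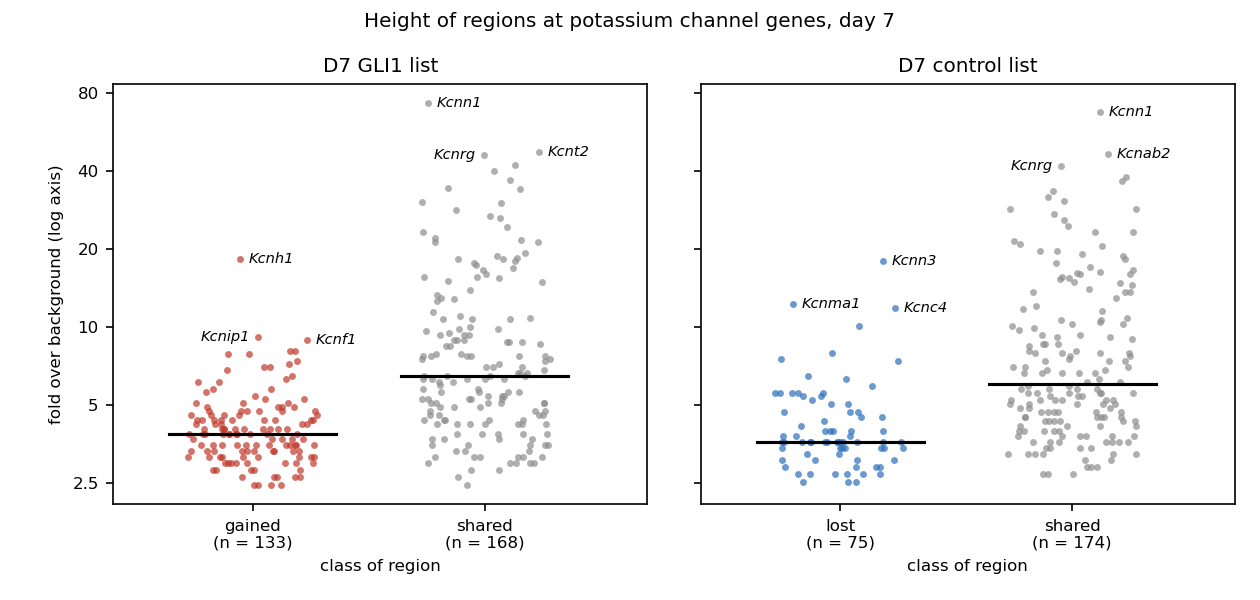
Fold over background (log axis) of each potassium channel region in the D7 GLI1 list (left, gained and shared) and the D7 control list (right, lost and shared), with the median as a bar and the 3 highest of each class named. Gained regions have a median of 3.86 and lost regions of 3.60, and only Kcnh1, Kcnn3, Kcnma1, Kcnc4 and 1 region of Kcnk5 exceed a fold of 10 among them.

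The pore-forming voltage-gated group, which repolarises excitable cells, had 52 gained among 131 regions with GLI1 and 34 lost among 119 in D7 control. Those shares, 39.7% and 28.6%, were near the 37.0% and 29.4% over all regions. The group's 38 genes with a region were 19 with a net gain, 12 with a net loss and 7 with neither. Of all genes with a D7 region, 34.6% had more gained and 20.6% more lost regions. Kcnh1, an ether-a-go-go channel gene of 321 kb, held 7 gained regions and 1 lost. Its strongest gained region, at chr1:192359663-192360470, had a fold of 18.3 with GLI1 and no peak in D7 control or D5 control, and its promoter had 15.1 with GLI1, 7.56 in D7 control and 4.90 at D5. Another shared region inside Kcnh1, at chr1:192280416-192281056, had 4.21 with GLI1 against 9.18 in D7 control. The gene thus held regions that were higher in either list.

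**Figure D3:**
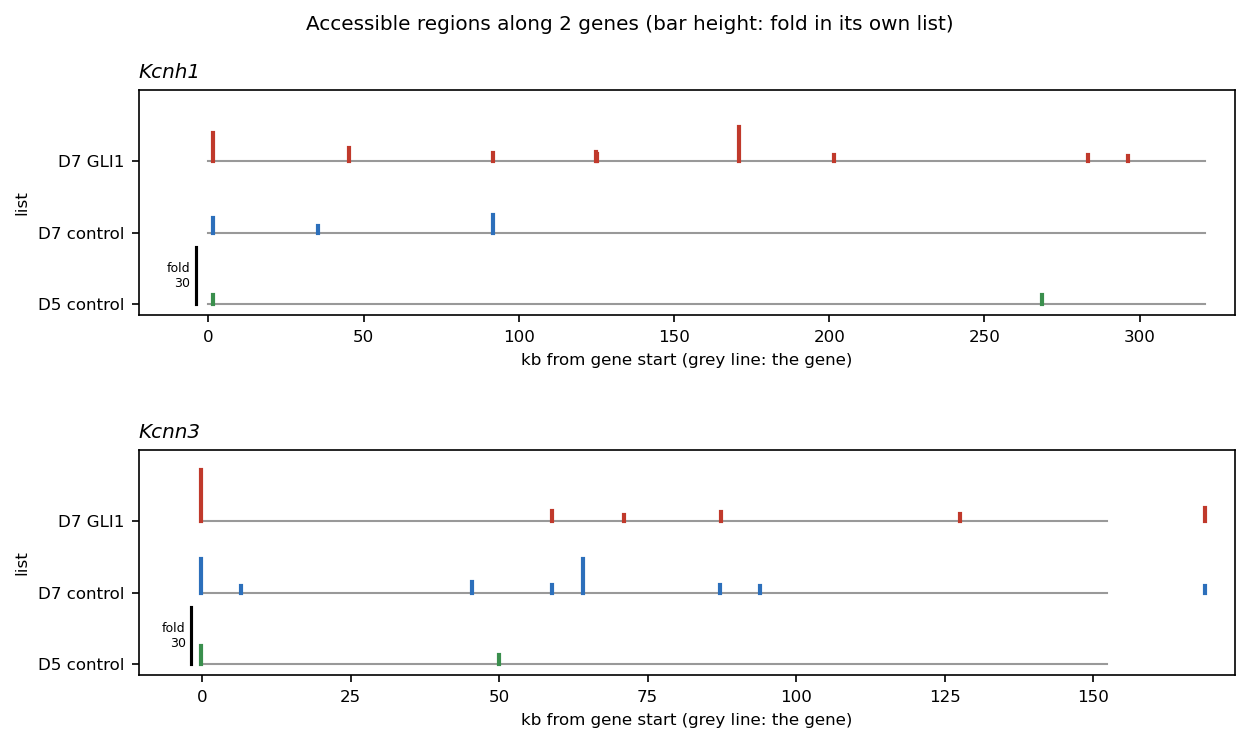
Regions along Kcnh1 and Kcnn3, by distance from the start of the gene in kb, in the D7 GLI1, D7 control and D5 control lists, with bar height giving the fold in that list. In Kcnh1 the bar of 18.3 near 171 kb stands in the GLI1 list only, and in Kcnn3 the bar of 18.0 near 64.1 kb stands in the D7 control list only.

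Kcnb2, a delayed rectifier gene of 437 kb, had 4 gained and 0 lost regions, with gained folds up to 5.62. At its start the shared region had 21.8 with GLI1 against 11.7 in D7 control, while one inside the gene, at chr1:15471407-15472022, had 4.39 against 16.6. Kcnq1, which carries the slow delayed rectifier current, had 6 gained and 3 lost regions, all with folds of at most 5.40. The strongest region inside Kcnq1, at chr7:143295898-143297049, covered the promoter of Kcnq1ot1, the imprinted antisense RNA, with 24.4 with GLI1, 28.6 in D7 control and 9.27 at D5. Kcnc4 had 3 gained regions and 1 lost. The lost one, at chr3:107420082-107420918, lay 17.7 kb outside the gene, had 11.9 in D7 control and 5.09 at D5, and had no peak with GLI1.

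Shared regions of some voltage-gated genes also stood apart in height. The promoter region of Kcnc2 had 15.97 with GLI1 against 5.22 in D7 control, and that at the start of the modifier gene Kcnv1 had 15.6 against 4.68. The reverse held inside Kcng4, a modifier gene, with 3.51 with GLI1 against 23.2 in D7 control. These 3 genes were named after their values were seen. Kcnc2 had 3 regions with GLI1 and 5 in D7 control, and Kcnv1 and Kcng4 each had 1 and 2. The GLI1 promoter region of Kcnc2 overlapped separate D7 control regions of 2.88, 5.22 and 4.86, so its counts are not counts of separate sites.

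The modifier subunits, which are silent alone, had 5 gained of 20 regions with GLI1 (11.2 to 46.9%) and 11 lost of 27 in D7 control (24.5 to 59.3%). Both intervals include the share over all regions. Kcns2 had 0 gained and 3 lost regions, with folds of 4.68, 4.68 and 7.56 in D7 control, all 16.6 to 61.9 kb outside the gene. Kcng3 had 0 gained and 2 lost, both at 3.24. Kcnf1 had the third highest gained region, at chr12:17202445-17203304 with 8.95, which lay 26.1 kb from the gene. Among the pore subunits, Kcna4 had 0 gained and 2 lost regions, with 3.60 and 3.06 in D7 control.

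The inward rectifiers had 14 gained of 42 regions with GLI1 (33.3%) and 12 lost of 40 in D7 control (30.0%). Both were near the shares over all regions, 37.0% and 29.4%. Kcnj15 had 2 gained regions, each at 3.86, and 4 lost, with 2.70 to 5.58 in D7 control. One of the gained regions covered its promoter, printed above, and a shared region inside the gene at chr16:95267429-95268144 had 3.86 with GLI1 against 19.1 in D7 control. Kcnj6, a subunit of G protein-gated channels and the inward rectifier with most peaks, had 2 gained and 3 lost regions. The higher of its gained regions had 7.90 with GLI1 and 3.88 at D5, and the lost ones had 4.50 to 5.94 in D7 control. Kcnj12, a strong rectifier of cardiac muscle, had 2 gained and 2 lost, and its shared region at chr11:61011287-61012529 had 10.7 with GLI1 against 24.5 in D7 control.

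The tandem-pore group had 22 gained of 39 regions with GLI1 (56.4%, 41.0 to 70.7), where 37.0% of all regions were gained. It had 9 lost of 24 in D7 control (37.5%, 21.2 to 57.3), an interval that includes the 29.4% of all. Of the group's 9 genes with a region, 6 had a net gain and 1 a net loss. Kcnk12 had 6 gained and 0 lost regions, of which the highest, at chr17:87745869-87746680, had 6.49 with GLI1 and 5.60 at D5. The other 5 had 2.46 to 3.86, so most of its gain was close to the lower end of the list. Kcnk5, a leak channel gene, had 4 gained and 5 lost regions within its span and flanks, with the highest gained at 7.37 and the highest lost at 10.1. Kcnk3, an acid-sensitive leak channel gene, had 1 gained region at 4.56 and 1 lost at 7.92, and the region at its start had 17.7 with GLI1 and 19.6 in D7 control. Kcnk1 was at 3 gained and 0 lost, with 7.90 in the highest.

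The calcium- or sodium-activated group had 18 gained of 35 regions with GLI1 (35.6 to 67.0%). It had 12 lost of 30 in D7 control (24.6 to 57.7%). Both intervals include the share over all regions, which was 37.0% for gained and 29.4% for lost. Kcnma1, the large-conductance calcium-activated channel, is 713 kb long and had 8 gained and 7 lost regions. Its highest gained region had 8.07 with GLI1 and its highest lost one 12.2 in D7 control, and a shared region 3.30 kb outside the gene had 5.27 with GLI1 against 21.4 in D7 control. Kcnn3, a small-conductance channel gene, had 2 gained and 4 lost regions. The lost region at chr3:89583857-89584719 had 18.0 in D7 control, the highest lost fold of any potassium channel gene, whereas the Kcnn3 promoter had 26.9 with GLI1, 17.6 in D7 control and 9.62 at D5. Kcnt2, a sodium-activated channel gene, had 3 gained and 0 lost, with gained folds up to 5.09.

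The auxiliary group had 27 gained of 54 regions with GLI1 and 8 lost of 36 in D7 control. The KChIP genes held most of the gained regions. Kcnip4, which spans 1136 kb, had 8 gained and 1 lost region, with gained folds of 3.51 to 6.14. Kcnip1 had 7 gained and 0 lost, the highest at chr11:33744361-33744967 with 9.13, and a shared region 21.2 kb outside it had 34.1 with GLI1 against 19.6 in D7 control. Kcnip2 had 3 gained regions and 1 lost. Kcnip3, whose product also binds DNA as a repressor, had 1 gained at 8.07 and 1 lost at 3.42, and 40.2 with GLI1 against 23.2 in D7 control at its main promoter. Kcnab1, a beta subunit gene, had 3 gained and 0 lost, all gained folds being at most 3.16. Of these genes, Kcnip1, Kcnip4 and Kcnab1 are long.

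Gene length went with these counts. At least 200 kb was taken as long, a limit set after the values were seen, and 18 of the 92 potassium channel genes were long (19.6%), against 945 of 20665 autosomal genes (4.57%). In long potassium channel genes 66 of 110 GLI1 regions were gained (60.0%, 50.7 to 68.7), where all long genes had 50.7%. In the other potassium channel genes 67 of 191 were gained (35.1%, 28.7 to 42.1), where all other genes had 34.3%. Lost regions made up 34.3% in long potassium channel genes against 42.9% in all long genes, and 28.5% against 26.8% in the others. When regions were assigned by the nearest end of a gene, so that long genes no longer collected those inside them, Kcnip4 had 1 gained and 0 lost, Kcnip1 had 4 and 0, and Kcnh1 had 3 and 1.

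**Figure D4:**
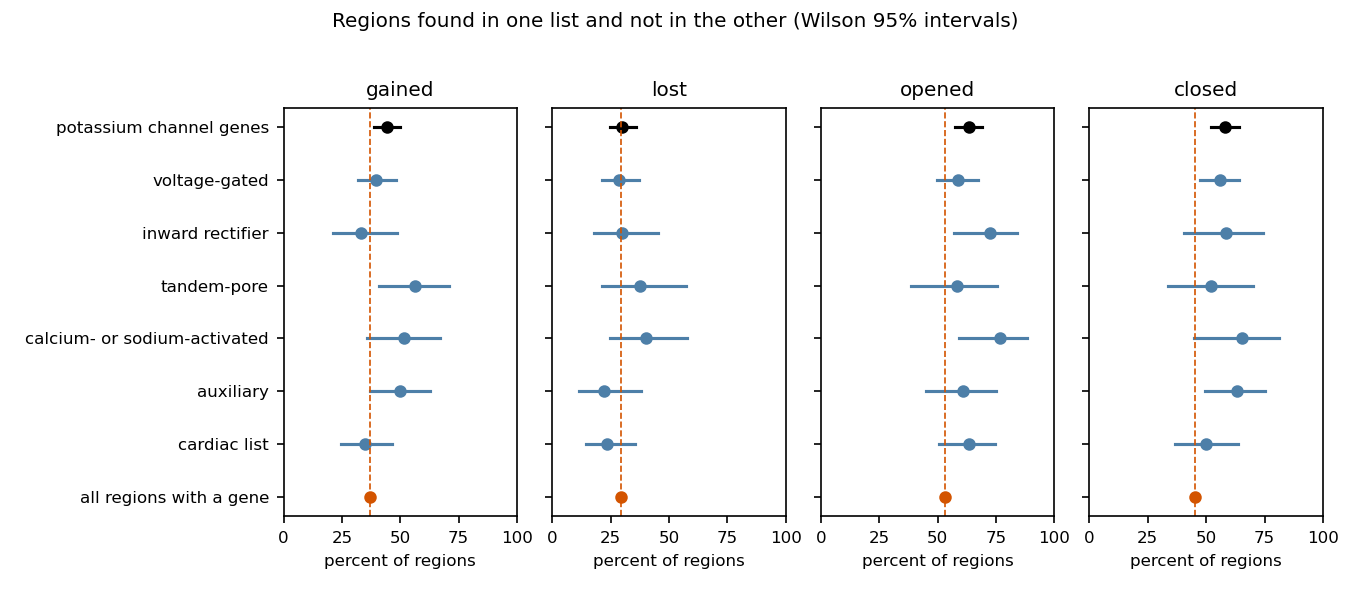
Percent of regions gained, lost, opened and closed (one panel each) at all potassium channel genes, the 5 groups and the cardiac list, with Wilson 95% intervals, and the percent over all regions with a gene as a dashed line. The gained share of all potassium channel regions is 44.2% against 37.0%, and the lost share 30.1% against 29.4%.

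Between D7 control and D5 larger shares of the potassium channel regions than of all regions stood in 1 list alone. A D7 control region with no D5 region is called opened, and a D5 region with no D7 control region closed. Opened regions were 158 of 249 (63.5%, 57.3 to 69.2), where 53.1% of all were opened, and closed regions 148 of 255 (58.0%, 51.9 to 63.9), where 45.3% of all were closed. Of the 84 genes, 46 had more opened regions (54.8%) and 30 more closed ones (35.7%), against 35.1% and 27.9% of 15593 genes with a region in either control list. Opened and closed counts were equal at 8 of the 84 genes and at 5764 of the 15593, so here too fewer ties leave more genes for both shares. The D5 list differs in lowest fold and peak length, and may differ in depth and background. Changes between the days cannot be told apart from these differences.

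Kcnh2, whose channel carries the rapid delayed rectifier current, had 8 opened and 0 closed regions, with 12 regions in D7 control and 4 at D5. Its strongest region, at chr5:24350952-24353814 and with its summit 0.108 kb before the gene's 5′ start, had 31.9 in D7 control and 7.15 at D5, and 34.4 with GLI1. Kcnma1 had 9 opened and 2 closed regions, Kcnn3 7 and 1, Kcnj12 6 and 1, and Kcnip3 5 and 1. In Kcnj12 the opened region with 24.5 in D7 control had no D5 peak.

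Closed regions most exceeded opened ones at Kcnq5, Kcnip4, Kcnt2 and Kcnab1, each at least 200 kb long. The next excess, of 4 regions, was reached by 8 genes of differing length, from Kcna3 with 0 opened and 4 closed to Kcnip1, which had the most regions of the 8. Kcnq5, an M-current gene of 564 kb, had 3 opened and 11 closed regions, the highest of which had 10.9 at D5. Kcnip4 had 1 opened and 8 closed, the highest with 14.1 at D5, Kcnt2 had 0 and 6, Kcnab1 1 and 6, and Kcnip1 2 and 6. In long potassium channel genes 84 of 119 D5 regions were closed (70.6%, 61.9 to 78.0), where all long genes had 67.4%. In the other potassium channel genes 64 of 136 were closed (47.1%), and in all other genes 10886 of 27202. Opened regions made up 55.7% in long potassium channel genes and 66.5% in the others, against 67.3% and 50.3% over all genes of those lengths.

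The D5 state of the gained and lost regions was also read. Of the 133 gained regions, 23 overlapped a D5 region (17.3%, 11.8 to 24.6), where 13.2% of all gained regions did. Of the 75 lost regions 3 did (4.0%, 1.37 to 11.1), where 8.64% of all lost regions did. With lists of equal length this direction turned, to 13.7% of the lost potassium channel regions and 12.5% of all lost regions. Inward rectifiers had 6 of 14 gained regions present at D5, tandem-pore genes 6 of 22 and voltage-gated genes 4 of 52. At Kcnip4 3 of the 8 gained regions were also D5 regions, with 4.04 to 4.39 with GLI1 and 5.22 to 6.47 at D5. Kcnj3, a subunit of the atrial acetylcholine-gated channel, had 2 such regions at and beside its promoter, with 3.16 and 5.09 with GLI1, no peak in D7 control, and 5.89 and 3.40 at D5.

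When regions of the 3 lists were joined where they overlapped, 487 potassium channel loci resulted. Of these, 87 were in all 3 lists, or 17.9% (14.7 to 21.5), against 25.2% of all 60543 loci. Another 110 were in the GLI1 list only (22.6%, all loci 20.4%), 72 in D7 control only (14.8%, all 15.4%) and 121 at D5 only (24.8%, all 21.7%). The 72 loci in both D7 lists and not at D5 were 14.8%, against 12.8% of all. GLI1 and D5 without D7 control shared 22 loci (4.52%, all 3.06%), and D7 control and D5 without GLI1 shared 3 (0.616%, all 1.42%). Those 3 lay at Kcnc4, Kcnd3 and Kcnk2, which were named after their values were seen. At Kcnd3 a GLI1 region of 3.86 lay directly beside the locus without reaching it.

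The strongest loci in all 3 lists were mostly at gene starts. Kcnn1, a small-conductance calcium-activated channel gene, led with 73.4 with GLI1, 68.0 in D7 control and 8.78 at D5. Kcnt2 had 47.6, 27.4 and 16.7 at its promoter, in the same order of lists. At Kcnab2, a beta subunit gene, the locus had 49.9, 46.6 and 11.2, and it also covered the start of Nphp4, a gene that begins there on the other side. In the GLI1 and D5 lists the highest summit of that locus was nearer to Nphp4, and only a side peak of 2.98 counted for Kcnab2 with GLI1. Kcnrg, which encodes a regulator of voltage-gated channel assembly, had 46.3, 41.9 and 8.76 at a locus 68.7 kb away that covered a promoter of the long noncoding RNA Dleu2. Kcnn2, another small-conductance channel gene, had 42.5, 38.2 and 8.48. Promoters of other RNAs or genes were covered by 18 of the 487 loci, 8 of them together with a potassium channel promoter.

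Promoter windows were available for 68 of the 92 genes, with 93 windows. A window was open when a region overlapped it, and 57.0% were open with GLI1 (46.8 to 66.6), 50.5% in D7 control and 35.5% at D5 (26.5 to 45.6). All 20085 protein-coding promoters were open in 57.9%, 56.5% and 54.1%. The gap between potassium channel promoters and all promoters was widest at D5. Of the potassium channel promoters 28.0% were CpG-rich, against 48.9% of all. CpG-rich means an observed over expected ratio of at least 0.6, a limit set after the values were seen. Within the CpG-rich class the potassium channel promoters were open in 84.6% with GLI1, 80.8% in D7 control and 61.5% at D5, where all CpG-rich promoters had 92.1%, 90.8% and 88.7%. Within the CpG-poor class they had 46.3%, 38.8% and 25.4%, where 2565, 2426 and 2158 of all 10255 CpG-poor promoters were open.

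Of the 93 windows, 31 were open in all 3 lists, 14 in both D7 lists alone and 37 in none. The 7 open with GLI1 only belonged to Kcnh8, Kcnip1, Kcnj5, Kcnj15, Kcnk10 and Kcnk2, the last with a pair of windows, and had folds of 2.98 to 4.21. At Kcnj5 a D7 control region of 2.70 lay beside the window without reaching it. The Kcnk10 window likewise had a D5 region of 4.69 beside it. The Kcnc4 window, with 4.68, and the Kcnf1 window, with 6.12, were open in D7 control only by this measure. A GLI1 region of 6.32 at Kcnc4, and GLI1 and D5 regions of 7.72 and 4.59 at Kcnf1, lay beside the window without reaching it. Kcnj3 was open with GLI1 and at D5, and Kcnip4 at D5 only, in 1 of its 2 windows. All of these windows had folds under 7. Median CpG ratios were 0.66 for windows open in all 3 lists, 0.43 for those in 1 or 2 lists and 0.23 for those in none. The sequences above span this range, from 0.11 in Kcnj15 and 0.41 in Kcnt2 to 0.83 in Kcnh1. Kcnj6, with 1.04, had the highest ratio of the windows in no list.

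**Figure D5:**
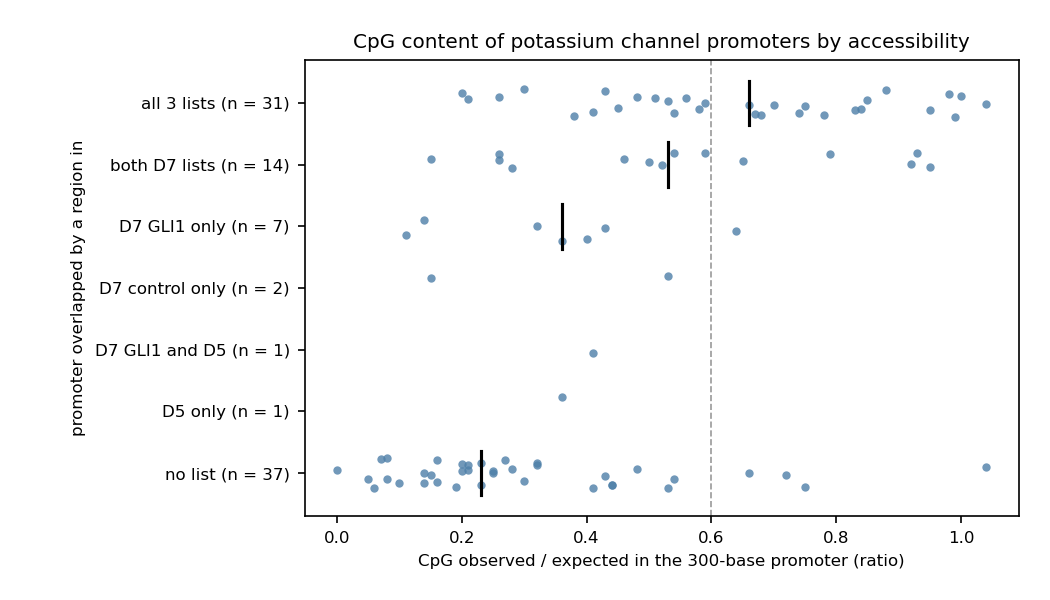
CpG observed over expected ratio of each of 93 potassium channel promoter windows, by the lists in which a region overlapped it, with the median as a bar for classes of at least 3 and a dashed line at 0.6. Windows open in all 3 lists have a median of 0.66 and those open in none 0.23.

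The letters GACCACCCA, a core of the GLI recognition sequence, were searched on both strands of the promoter windows. They were in 0 of 93 potassium channel windows and in 0.174% of all promoters. The letters TTCAGCACC, one arm of the sequence bound by the neuronal repressor REST, were in 1 window, that of Kcnh6, or 1.08% against 0.413% of all promoters. The motifs do not overlap each other, and a match here is a match of letters only.

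Cardiac potassium current genes formed a list of 16. It had 24 gained of 69 regions with GLI1 (34.8%, 24.6 to 46.6) and 14 lost of 60 in D7 control (23.3%, 14.4 to 35.4), against 44.2% and 30.1% over all potassium channel regions and 37.0% and 29.4% over all regions. Both intervals of the list include the share over all regions. Kcnq1 had 6 gained and 3 lost regions, and Kcnh2, Kcnip2 and Kcnj3 each had 3 gained and 1 lost, the lost one of Kcnh2 with 3.96 in D7 control. Kcnd2 and Kcnn2 had 2 gained and 0 lost, and Kcna5 had 1 and 0. Kcnd3 had 1 gained and 2 lost, Kcne1, the partner subunit of Kcnq1, had 0 and 1, and Kcna4 had 0 and 2. At Kcnd3 the gained region lay directly beside a lost one. Kcnj2 and Kcnj5 had neither, nor did Kcnj8 and Kcnj11, which encode pores of ATP-sensitive channels. Kcnj2, whose promoter is printed above, was among the highest with 36.9 with GLI1, 33.5 in D7 control and 13.3 at D5. Kcnj8 had 1 locus, at its promoter, with 8.95, 5.94 and 6.85 in those lists.

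In the transient outward current, the pore genes and their KChIP partner were open at their starts in both D7 lists. The Kcnd2 promoter had 6.67 with GLI1, 3.60 in D7 control and 6.41 at D5, and that of Kcnd3 had 8.78 with GLI1 and 7.38 in D7 control. Kcnip2 had 7.72 with GLI1 and 7.02 in D7 control at its promoter, with no D5 region there. From D5 to D7 control the cardiac list had 38 opened of 60 regions (63.3%, 50.7 to 74.4), where 53.1% of all were opened. It had 25 closed of 50 (36.6 to 63.4%), an interval that includes the 45.3% of all. Kcnd2 and Kcnd3 each had 4 closed regions, Kcnj3 5 and Kcnn2 4.

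Genes whose products work with these channels but have other symbols were counted as a list of 10. They had 20 gained of 31 regions with GLI1 (64.5%, 46.9 to 78.9) and 8 lost of 19 in D7 control (42.1%, 23.1 to 63.7), where 37.0% of all regions were gained and 29.4% lost. Dpp6, a partner of the Kcnd channels, gave 9 of the gained and 3 of the lost, and Dpp10, its relative, 3 and 2. Abcc9, the sulfonylurea receptor of cardiac ATP-sensitive channels, had 3 gained and 2 lost regions. The neuronal channel list of 10 genes had 12 gained of 31 and 7 lost of 28. Of the like families, calcium channel genes had 44 gained of 99 regions with GLI1 (44.4%, 35.0 to 54.3) and 43 lost of 100 in D7 control (43.0%, 33.7 to 52.8). Sodium channel genes had 12 of 39 gained (30.8%) and 12 of 37 lost (32.4%). The gained share of potassium channel genes, 44.2%, was close to that of calcium channel genes, and their lost share, 30.1%, was lower, with intervals that overlap (24.8 to 36.1 and 33.7 to 52.8).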

How the data were processed

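Members, lists and limits were chosen with earlier results of these data known. Per the submitters' processing notes, reads were handled with Bowtie2 2.3.2, SAMtools 1.5, Picard and MACS2 2.1.1 on mm10. Depth per library is not given in the sources used here. Per the file format, the authors' deposited lists give each peak a score (10 times its −log10 q), a fold over background, which is a ratio, the peak caller's −log10 q and −log10 p, and the offset of the summit in bases. Per the file names, blacklisted and mitochondrial peaks were removed from the D7 lists. Here, with Python 3.11.15, pandas 2.3.3 and scipy 1.17.1, summits were assigned to the nearest RefSeq gene interval, and where genes overlap to the one with the nearer end. The annotation gives no exons, so exon or intron is not stated. Peaks of a list that overlap were merged, and regions overlapping by at least 1 base were counted as shared. The code was tested on simulated lists. The values of 1 gene, counted in every total, are not reported here. Genes were named by rule: the largest and smallest gained minus lost and opened minus closed counts (ties, which reached the last place of each, to the gene with more regions in the lists compared, then by symbol), the 5 highest folds among gained, lost and 3-list regions, the cardiac list, and the gene with most peaks in each group. Alternatives were a −log10 q of at least 5, 50% coverage, summits within 200 bp, 25 kb, nearest gene end, equal list lengths, channel subunits alone and strong regions.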

Additional observations from a re-analysis of the deposited data

How the results depend on the processing

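No paired analysis was possible because every list pools the libraries of a group, so a replicate block and the leaving out of single libraries were not run. The gained share exceeded that of all regions under 7 of 8 alternatives. Its difference from all regions ran from −0.14 (strong regions only) to 9.26 points (−log10 q of at least 5). The differences ranged from 0.25 to 2.15 points for lost, 3.37 to 12.28 for opened and 10.45 to 14.54 for closed regions. With strong regions only, 25 were gained (8.31%) and 20 lost (8.03%), and 8 gained (32.0%) and 1 lost region were present at D5. With a −log10 q of at least 5, 47 were lost, 55 closed (45.5%), and 12 gained and 1 lost were present at D5. With 50% of a region covered, 50.5% were gained, 36.9% lost and 78.7% opened, and 15 of the gained (9.87%) were present at D5. With equal list lengths 103 were opened (56.3%), and 29.9% of gained and 7 lost regions (13.7%) were present at D5. That last share exceeded the share over all regions by 1.26 points, where the difference had been −4.64 points. With summits within 200 bp, 5 lost regions were present at D5. The causes were not tested, though stricter alternatives hold fewer regions by construction. For 37 named genes, 277 of 444 net counts kept the main value, 161 moved and 6 reversed. The net of gained over lost regions became −1 (−log10 q) and −2 (equal lengths) at Kcnma1, and 1 (−log10 q) at Kcne1. The net of opened over closed became −1 at Kcna4 and Kcng3 (equal lengths) and 2 at Kcnd3 (−log10 q).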
